A study of Mus musculus with 2 samples.

Results

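Within the Ly6d+ early thymic progenitors of the mouse, cells in which Il2ra RNA was detected were compared with cells in which it was not. A cell of this sort with at least 3000 UMIs (unique molecular identifiers, the counted RNA molecules) was Il2ra positive when it held 1 or more Il2ra UMIs and Il2ra negative when it held 0. The rule gave 189 positive and 637 negative cells, 826 of the 847 cells of the sort, out of 8293 cell barcodes in the series. The series measured RNA in single cells of 5 thymus sorts, each marked with its own hashtag antibody and pooled into 1 droplet library. All cells came from C57BL/6 mice of the genotype Bcl11byfp/yfp, in which a yellow fluorescent reporter sits at Bcl11b, so positive, negative and control cells all carried the reporter. The sources used here do not give the number of mice pooled. Positive and negative cells passed the same gates: negative for lineage markers and for 7AAD, which stains dead cells, positive for Kit, negative for surface CD25 and for the Bcl11b reporter, negative for Flt3 and positive for Ly6d, with no gate on HSA, the CD24 antigen. The same comparison was made in a Flt3- Ly6d- HSA- sort, which shared the Kit, CD25 and Bcl11b gates, and in a control sort gated only as negative for lineage markers and 7AAD and positive for Kit. A pair of Flt3+ sorts, Ly6d- HSA- and HSA+, held too few Il2ra positive cells for the comparison (14 and 46) and served only for the share of cells with Il2ra RNA. Since each group came from 1 sort in 1 library and cells are not replicates, no test was run, and every interval below is a 95% interval that covers counting error only.

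Il2ra encodes CD25, the alpha chain of the interleukin-2 receptor, which joins the beta chain (Il2rb) and the common gamma chain (Il2rg) to bind interleukin-2 tightly. In the thymus CD25 is the surface marker by which DN2 cells are told from the earlier Kit+ progenitors, and its appearance comes before Bcl11b and before commitment to the T lineage. Notch1 signalling together with the transcription factors TCF-1 (Tcf7) and GATA3 drives that step. RNA and surface protein are separate measures here, since the sort chose cells by the protein and the rule by the RNA.

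The Il2ra gene (ENSMUSG00000026770) lies on chr2:11642807-11693193 on the plus strand of mm10, and Fgf3 (ENSMUSG00000031074), the only gene that passed a 2-fold limit in positive cells, on chr7:144838083-144844436 on the plus strand. The promoters of both are shown because Il2ra RNA chose the cells and Fgf3 had the highest ratio of the genes called in them. They are the 250 bases before the transcript starts that RefSeq gives in GRCm38.p6, at chr2:11642542-11642791 and chr7:144838362-144838611, both on the plus strand and 5′ to 3′. Capitals mark matches on either strand to 4 motifs, AGATAA (bound by GATA factors), TGTGGT (RUNX), CTTTGA (TCF) and TGGGAA (RBPJ, the partner of Notch), none of which overlap here.
Il2ra: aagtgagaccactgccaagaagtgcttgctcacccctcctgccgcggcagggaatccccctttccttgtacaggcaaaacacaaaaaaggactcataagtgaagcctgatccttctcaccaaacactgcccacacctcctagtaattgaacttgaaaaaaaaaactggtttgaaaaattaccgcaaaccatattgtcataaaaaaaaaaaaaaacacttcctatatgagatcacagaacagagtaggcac
Fgf3: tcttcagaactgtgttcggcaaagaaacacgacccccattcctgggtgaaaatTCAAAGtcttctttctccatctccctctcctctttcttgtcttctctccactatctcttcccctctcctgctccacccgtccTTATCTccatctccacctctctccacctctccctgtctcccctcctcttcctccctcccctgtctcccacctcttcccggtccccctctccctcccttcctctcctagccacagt
The Fgf3 window held 1 match to the GATA motif and 1 to the TCF motif, and the Il2ra window held 0 matches to any of the 4. Among 32851 mouse promoters of the same length, 9.99% held the GATA letters, 14.0% the RUNX letters, 13.8% the TCF letters and 21.6% the RBPJ letters. The Fgf3 window lies inside the gene as GENCODE draws it, which starts further upstream.

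Il2ra RNA was found in 22.9% of Ly6d+ cells (189 of 826, exact interval 20.1% to 25.9%). Of the positive cells, 119 held 1 Il2ra UMI, 36 held 2 and 34 held 3 or more, with at most 7 in a cell. One common Il2ra level in all cells would have given, by Poisson counting at each cell's depth, 206 cells with 1 UMI, 42.7 with 2 and 7.78 with 3 or more. The sort thus had more cells with 0 Il2ra UMIs (637, against 569 under one common level) and more with 3 or more than that single level gives. Il2ra averaged 29.8 UMIs per 1000000 UMIs of all genes (CPM, 26.6 to 33.3) over the sort.

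**Figure D1:**
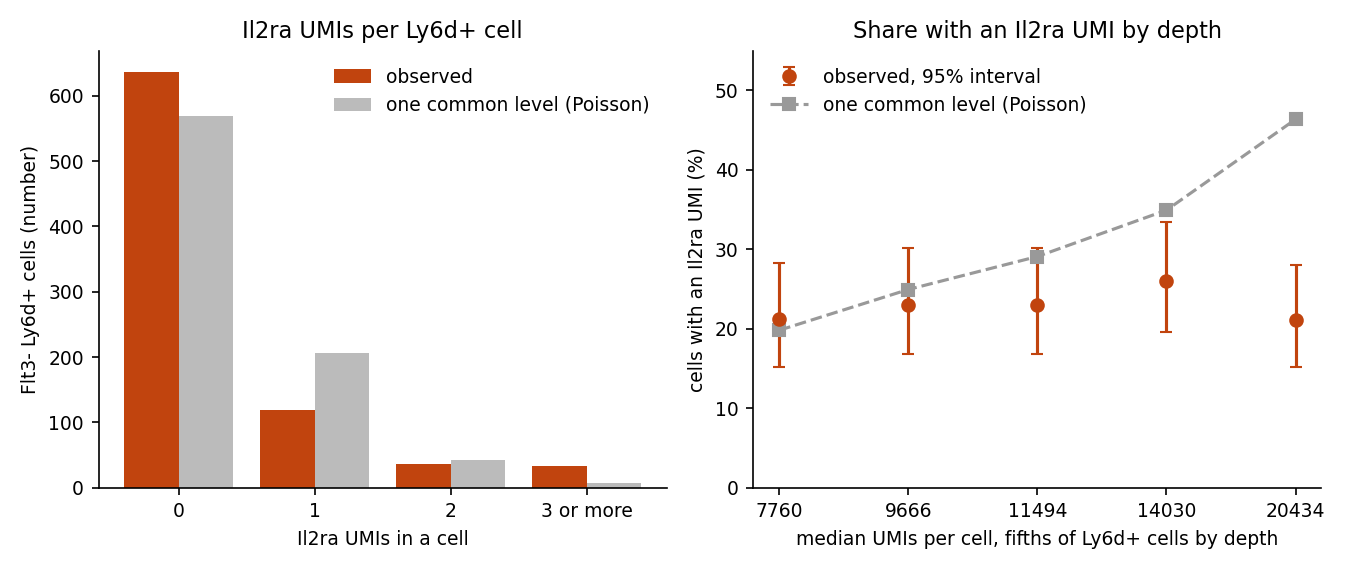
Left, number of Ly6d+ cells by the Il2ra UMIs they held, observed and as one common Il2ra level would give. Right, the share of cells with an Il2ra UMI in 5 equal parts of the sort by depth, with exact 95% intervals: it stayed between 21.1% and 26.1% where one common level would have given 19.8% in the shallowest cells and 46.4% in the deepest.

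Depth did not separate the 2 groups: positive cells held a median of 11648 UMIs and negative cells 11474. With the sort cut into 5 equal parts, from the shallowest cells to the deepest, the share with Il2ra was 21.2%, 23.0%, 23.0%, 26.1% and 21.1%, and the Il2ra level was 44.1, 36.5, 38.4, 26.1 and 19.8 CPM. The share was thus about even over depth, and the level relative to all UMIs was lowest in the deepest cells. Just inside the UMI minimum, 0 of the 4 cells between 3000 and 4000 UMIs were positive, just outside it 1 of the 3 between 2000 and 3000, and 2 of all 21 cells left out held an Il2ra UMI.

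Set against the other sorts, the Ly6d+ share lay above the other CD25- sorts and below the control. The Flt3- Ly6d- HSA- sort had 7.84% positive cells (6.36% to 9.54%), the Flt3+ HSA+ sort 3.91%, the Flt3+ Ly6d- HSA- sort 0.996% and the control, which holds CD25+ cells, 63.6%. After every cell was thinned at random to 3000 UMIs the order was the same, with 7.75% of Ly6d+ cells positive (6.02% to 9.79%), against 2.93% of Flt3- Ly6d- HSA-, 0.595% of Flt3+ HSA+, 0.356% of Flt3+ Ly6d- HSA- and 36.4% of control cells. The 14 positive cells of the Flt3+ Ly6d- HSA- sort held 1 UMI each at a median depth of 14702 UMIs, and 13.9 positive cells are what one common level of 0.569 CPM would give there. That level was computed from the same 14 UMIs, so the near match was almost fixed in advance and shows nothing about their source. Free RNA in the droplets was not measured here, so whether that sort's share was background was not tested.

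The cells carried the RNA their label names. A Ly6d UMI was found in 67.4% of the sort, and after thinning in 46.9%, against 5.41%, 3.74% and 3.62% of the Flt3+ Ly6d- HSA-, Flt3+ HSA+ and Flt3- Ly6d- HSA- sorts. Positive and negative cells were alike in the median share of their own hashtag (99.2% and 99.3%), in mitochondrial UMIs (4.92% and 4.81%) and in genes detected among 3000 UMIs (1329 and 1316). All 8293 barcodes of the RNA matrix stood in the hashtag table too. Doublets were not called, since 2 cells of the same sort cannot be seen in hashtags.

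To allow for depth, the UMIs of each gene summed over positive cells were set against those expected from negative cells of the same depth, in 5 strata cut at the quintiles of the positive cells' UMI totals. The ratio is positive over negative, and Il2ra itself is left out. A gene counted as higher or lower in positive cells at 1.5-fold, provided that the group where it was higher had 20 CPM or more and detected it in 5% or more of its cells. Of 5761 genes with that level in either group, 27 (0.469%) were higher and 31 (0.538%) lower, 58 in all (1.01%). Their intervals all lay clear of 1, but at this depth the level rule and the 1.5-fold limit ensure that. It thus adds no support to the 58 calls. Of these, 16 higher and 25 lower genes reached that level over both groups together, and the rest entered only through the group where they were higher. At 2-fold 1 gene, Fgf3, was higher (0.0174%) and 0 were lower. Few genes thus passed 1.5-fold by this rule. The median log2 ratio over all genes tested was 0.014, a value that scaling to total UMIs tends to keep near 0. After thinning, 64 of the 189 positive cells kept an Il2ra UMI, so 0 Il2ra UMIs does not show that the RNA was absent. With 2 or more Il2ra UMIs against 0, 184 genes were higher and 131 lower, on only 70 positive cells. The few calls therefore do not show that cells with and without Il2ra RNA were alike.

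**Figure D2:**
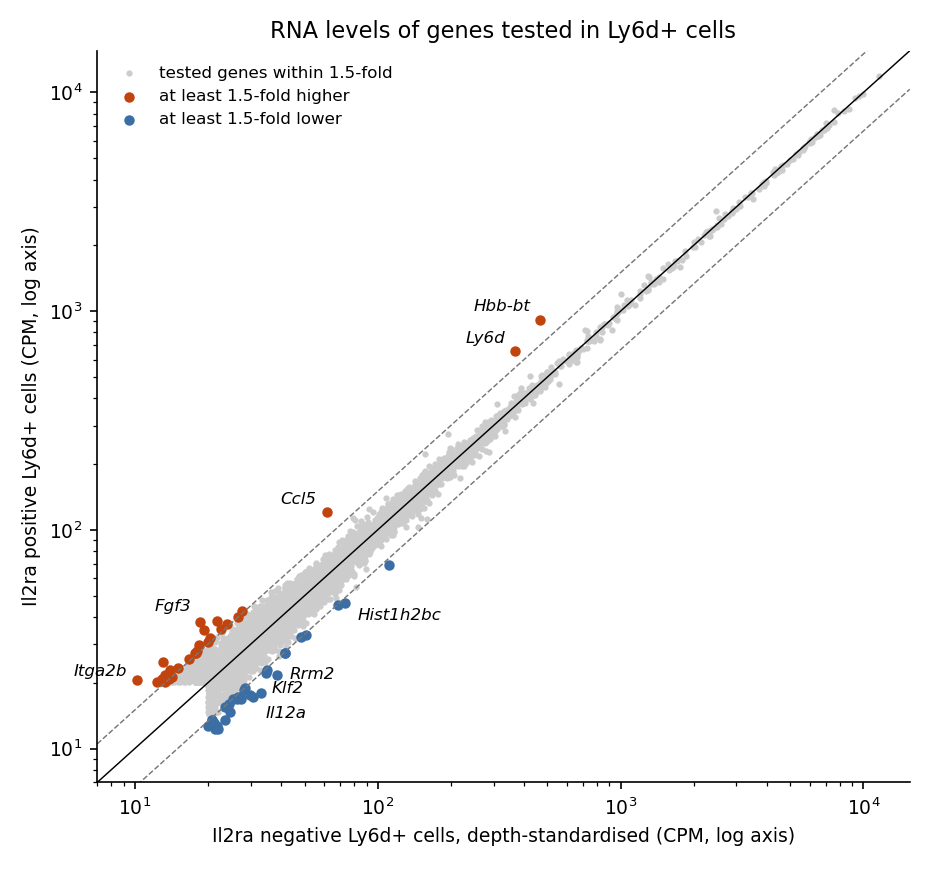
Each point is 1 of the genes with enough UMIs in Ly6d+ cells, by its level in Il2ra negative cells standardised for depth (x axis) and in positive cells (y axis), both in CPM on log axes. Most points lie within the dashed 1.5-fold lines, with Ly6d, Hbb-bt, Ccl5 and Fgf3 above them and Klf2, Rrm2, Il12a and Hist1h2bc below.

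Among surface antigens Ly6d itself, the antigen used to gate the sort, was higher in positive cells. Ly6d (chr15:74762056-74763620, minus strand) stood at 658 CPM (626 to 691) in positive cells and 369 CPM (356 to 383) in negative cells, a ratio of 1.78 (1.68 to 1.89). After thinning, 56.6% of positive and 44.0% of negative cells held a Ly6d UMI, both above the 3.62% of the Flt3- Ly6d- HSA- sort. With 0, 1 and 2 or more Il2ra UMIs, Ly6d was 364, 526 and 871 CPM, with intervals that did not overlap. Itga2b (chr11:102453297-102470122, minus strand), which encodes integrin alpha IIb (CD41) of platelets and early blood progenitors, had 20.5 CPM in positive and 10.3 CPM in negative cells (ratio just under 2.0, 1.41 to 2.84). Itga2b rested on 50 UMIs in positive and 84 in negative cells, and it passed the level rule only through positive cells. In the same groups after thinning, 3.17% of positive cells (1.17% to 6.78%) and 4.24% of negative cells (2.81% to 6.11%) held an Itga2b UMI. The share of cells thus did not go with the ratio, and its intervals overlapped. Its log2 ratio was -1.56 when Il2ra was called after thinning, which left 64 positive cells with few Itga2b UMIs. It was -0.052 without cells with markers of another cell type, which left 43 positive cells and used Itga2b itself as a marker.

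The other gate genes differed by less than 1.5-fold or lay under the level rule. Kit, the stem cell factor receptor, had 118 CPM in positive and 111 CPM in negative cells (ratio 1.07, 0.94 to 1.22), and Cd24a, which encodes HSA, 227 and 197 CPM (ratio 1.15, 1.05 to 1.27). Flt3 was low in both, at 11.1 CPM in positive and 15.1 CPM in negative cells. Bcl11b RNA, from the commitment gene whose reporter was gated out, was found in 4 of 189 positive cells (2.12%) and 12 of 637 negative cells (1.88%), against 4 of 1069 Il2ra negative cells (0.374%) of the Flt3- Ly6d- HSA- sort at a median of 10151 UMIs. Its level was 6.14 CPM in positive and 2.55 CPM in negative cells, but 12 of its 15 UMIs in positive cells came from a single cell.

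Secreted factors made up the next group. Fgf3, a fibroblast growth factor gene, was listed here with the Notch targets. It had 38.1 CPM (30.8 to 46.7) in positive and 18.5 CPM (15.7 to 21.8) in negative cells, a ratio of 2.06 (1.59 to 2.67). It too was graded, at 18.5, 31.9 and 48.1 CPM with 0, 1 and 2 or more Il2ra UMIs, with overlapping intervals for the upper pair. Ccl5 (chr11:83525778-83530518, minus strand), a chemokine of activated lymphocytes, had 120 CPM (107 to 135) in positive and 61.8 CPM (56.5 to 67.6) in negative cells (ratio 1.95, 1.69 to 2.25). Ccl5 did not follow the number of Il2ra UMIs, with 60.5, 139 and 90.9 CPM at 0, 1 and 2 or more. With Il2ra called after thinning, the log2 ratio of Ccl5 was 0.0035 and that of Fgf3 0.37, and without cells with markers of another cell type they were 0.28 and 0.42. Il12a (chr3:68690644-68698547, plus strand), the p35 subunit of interleukin-12, went the other way with 17.2 CPM in positive and 30.7 CPM in negative cells, 1.79-fold lower (1.29 to 2.48), at 30.4, 18.6 and 15 CPM with 0, 1 and 2 or more Il2ra UMIs and overlapping intervals for the upper pair.

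Hbb-bt, an adult beta globin gene (chr7:103812524-103813996, minus strand), had the narrowest interval of the higher genes, at 913 CPM in positive and 468 CPM in negative cells (ratio 1.95, 1.85 to 2.06). Its UMIs sat in few cells: the 10 positive cells with most of them held 65.7% of the group's total, up to 242 in a cell, and the 10 such negative cells held 37.7%, up to 238. Without the 5 positive and 17 negative cells with most, the ratio was 2.71, and with Il2ra called after thinning its log2 value was -0.19. Other red cell genes were nearly unread in either group. Hba-a1 and Hba-a2 (alpha globins) had 0 UMIs in both, Gata1, Hbb-bs and Car1 had 0 in positive and 1 in negative cells, and Klf1 had 0 and 6. Hbb-bt has a near-identical neighbour, Hbb-bs, and the sources used here do not say how reads were divided between them.

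Slc45a4, a solute carrier gene, stood at 25.0 CPM in positive and 13.1 CPM in negative cells (ratio 1.91), and Cdkn1a, which encodes the cell cycle inhibitor p21, at 34.8 and 19.3 CPM (ratio 1.80, 1.38 to 2.35). Slc45a4 passed the level rule only through positive cells. Gsn, the actin-severing protein gelsolin, had 38.5 CPM in positive and 21.9 CPM in negative cells (ratio 1.76), and Ctsl, a lysosomal protease, 29.9 and 18.4 CPM (ratio 1.63). The remaining higher genes of the ranking were Ctsg, the neutrophil protease cathepsin G, at 42.6 and 27.6 CPM, Smg9, of nonsense-mediated decay, at 37.3 and 24 CPM, and Dhx40, an RNA helicase, at 35.2 and 22.6 CPM, with ratios between 1.55 and 1.56. Of the 12 leading higher genes, Cdkn1a stayed 1.5-fold higher under all 17 alternatives run and Ly6d under 16, while Slc45a4 and Ctsg had log2 ratios of -0.23 and -0.51 with Il2ra called after thinning. Gsn and Smg9 were at 0.32 and 0.17 after thinning, and Ctsl and Dhx40 at 0.063 and 0.34 without cells with markers of another cell type.

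Klf2, a transcription factor of quiescence and of thymic exit, led the genes lower in positive cells. It had 18.0 CPM (13.1 to 24.2) in positive and 33.0 CPM (29.2 to 37.3) in negative cells, 1.83-fold lower (1.33 to 2.52), and stood at 33.1, 24.6 and 7.49 CPM with 0, 1 and 2 or more Il2ra UMIs, with overlapping intervals at 0 and 1. Hist1h2bc, a histone H2B gene with near-identical copies among which reads may be split, had 46.3 CPM in positive and 73.6 CPM in negative cells, 1.59-fold lower (1.3 to 1.94). By Il2ra UMIs it had 72.3, 60.4 and 23.5 CPM, again overlapping at 0 and 1. Bcl9 and Bcl9l, coactivators of beta-catenin, were 1.74-fold and 1.57-fold lower, at 13.5 and 22.1 CPM in positive cells against 23.5 and 34.8 CPM in negative cells. Ptger2, a prostaglandin E2 receptor, was 1.75-fold lower, Ccdc77 1.80-fold, Fam178a 1.67-fold and Klrd1, the NK receptor chain CD94, 1.72-fold. Hist1h2bc and Il12a stayed 1.5-fold lower under all 17 alternatives and Klf2, Bcl9 and Ptger2 under 16. Without cells with markers of another cell type, log2 ratios were 0.24 for Klrd1, -0.12 for Bcl9l, -0.31 for Fam178a and -0.37 for Ccdc77. Klrd1 is itself among those markers, so the filter partly set its value.

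**Figure D3:**
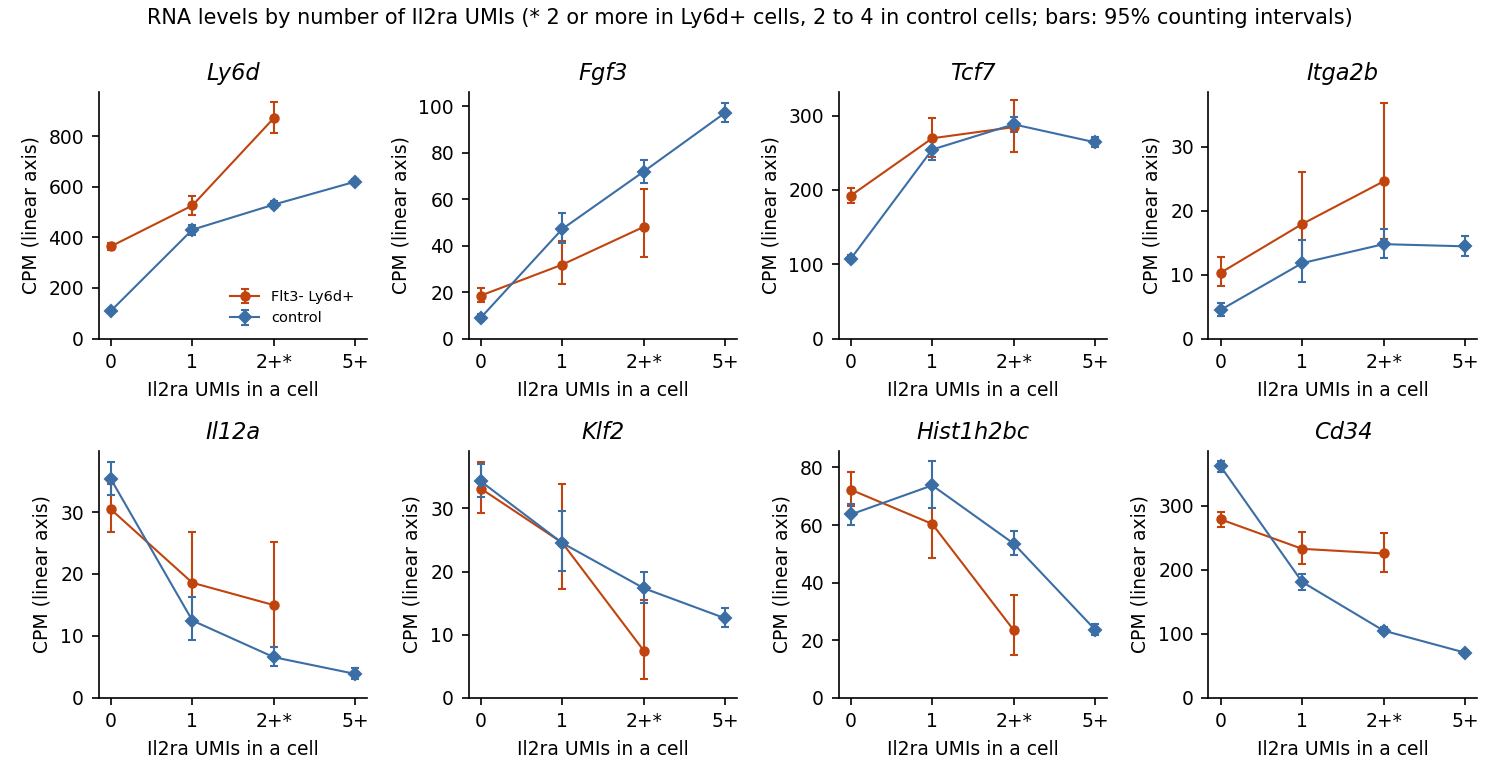
RNA levels in CPM (y axis) of 8 genes in cells grouped by their number of Il2ra UMIs (x axis), in the Ly6d+ and control sorts, with exact 95% counting intervals. In Ly6d+ cells Ly6d, Fgf3, Tcf7 and Itga2b stood higher and Il12a, Klf2, Hist1h2bc and Cd34 lower in cells with 2 or more Il2ra UMIs than in cells with 0.

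Most cell cycle genes had ratios below 1. Of 21 S phase genes with enough UMIs, 17 lay below 1 and 2 were lower, 0 were higher and the median log2 ratio was -0.12. Of 17 G2 and M phase genes 16 lay below 1 and 3 were lower, 0 were higher and the median was -0.38. Over all genes tested 0.538% were lower and the median was 0.014. Rrm2 (chr12:24708241-24714146, plus strand), a subunit of ribonucleotide reductase, had 21.7 CPM in positive and 38.5 CPM in negative cells, 1.77-fold lower (1.33 to 2.37), and Tyms, thymidylate synthase, 45.5 and 68.8 CPM, 1.51-fold lower. Without cells with markers of another cell type the log2 ratio of Rrm2 was -0.24, and Tyms passed 1.5-fold in 10 of 17 alternatives. The mitotic genes Nusap1, Tpx2 and Cenpf were 1.53-fold, 1.51-fold and 1.5-fold lower. Except for Cenpf (51.3, 33.9 and 29.95 CPM), these RNAs did not step down with the number of Il2ra UMIs: at 0, 1 and 2 or more, Rrm2 had 41.6, 15.9 and 31.0 CPM, Tyms 73.2, 39.2 and 55.6 CPM, Tpx2 43.8, 19.2 and 40.6 CPM and the proliferation antigen gene Mki67 86.4, 37.2 and 83.4 CPM. These 4 were lowest in cells with 1 Il2ra UMI. The mitotic RNAs sat in few cells, the 10 positive cells with most holding 98.2%, 88.1% and 82.3% of the group's UMIs, and with 2 or more Il2ra UMIs the log2 ratios of Nusap1 and Tpx2 were -0.20 and -0.12. Cells with 5 or more G2 and M phase UMIs among 3000 made up 8.47% of positive cells (4.92% to 13.4%) and 10.4% of negative cells (8.10% to 13.0%), so the shares of cells in those phases were not told apart at this depth. The S phase genes with the highest ratios, Tipin, Mcm5 and Mcm3, lay at 1.03, 1.02 and 1.01.

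Next come the lists closest to Il2ra by function, for which the shares of all genes tested were 0.469% higher and 0.538% lower. Of the interleukin-2 family receptors, the STAT5 pathway and its targets, 1 of 11 was higher (Socs3, a feedback inhibitor of cytokine signalling, 27.4 CPM in positive and 17.8 CPM in negative cells, ratio 1.55) and 0 were lower, with a median log2 ratio of 0.045. Il2rg, the common gamma chain, had 55.7 CPM in positive and 69.7 CPM in negative cells, a ratio below 1. Il2rb, the beta chain, had 0 UMIs in positive and 1 UMI in negative cells, too few for a comparison. Il7r, the interleukin-7 receptor, had 33.6 and 28.7 CPM (ratio 1.17, 0.91 to 1.5), Stat5a 51.2 and 41.4 CPM (ratio 1.24, 1.01 to 1.52), and Pim1 and Bcl2, survival genes that STAT5 activates, had ratios of 1.14 and 1.33. Socs3 was uneven as well, with 77.6% of its positive-cell UMIs in 10 cells, and its log2 ratio was -0.21 with 2 or more Il2ra UMIs.

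Among 13 T-lineage regulators 0 were higher and 0 lower, with a median of 0.035. Since 1.01% of all genes tested were called either way, a count of 0 in a list this short, here and in the other lists, says nothing particular to it. Tcf7, which encodes TCF-1 (chr11:52252371-52283014, minus strand), came nearest, at 275 CPM in positive and 195 CPM in negative cells (ratio 1.41, 1.29 to 1.55), and 192, 269 and 285 CPM with 0, 1 and 2 or more Il2ra UMIs. Gata3 had 37.3 CPM in positive and 36.4 CPM in negative cells (ratio 1.02, 0.81 to 1.3), Runx1 156 and 153 CPM, Myb 258 and 243 CPM and Satb1 149 and 151 CPM. Of T-cell receptor and signalling genes only 4 had enough UMIs, with 0 higher and 0 lower: the kinase Lck (ratio 1.09), the adaptor Lat (1.09), Cd7 (1.05) and Dntt, the polymerase that adds junctional bases (0.88). The CD3 chains, found on committed cells, were near 0, Cd3g with 2 UMIs in positive and 8 in negative cells and Cd3e with 0 and 3. Of 5 Notch receptors and targets, 1 was higher (Fgf3), while Notch1 had 177 CPM in positive and 162 CPM in negative cells and its target Hes1 184 and 164 CPM. The lists were chosen with earlier results of these data known, so Fgf3 in this list gives no separate support for a part of Notch, which was not tested.

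Stem and progenitor regulators had 0 higher and 0 lower of 15, with a median of 0.057. Spi1, which encodes PU.1, had 222 CPM in positive and 196 CPM in negative cells, Lyl1 150 and 145 CPM, Bcl11a 173 and 178 CPM, Mef2c 304 and 331 CPM, Lmo2 58.6 and 64.5 CPM and Cd34, the progenitor antigen, 230 and 279 CPM (ratio 0.83, 0.75 to 0.91). Homing and adhesion receptors had 0 higher and 0 lower of 7, with Itga4, integrin alpha 4, the farthest from 1 at a ratio of 1.21. The 14 Myc-linked growth genes and 10 immediate early and stress genes had 0 either way, with medians of -0.0085 and -0.084.

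**Figure D4:**
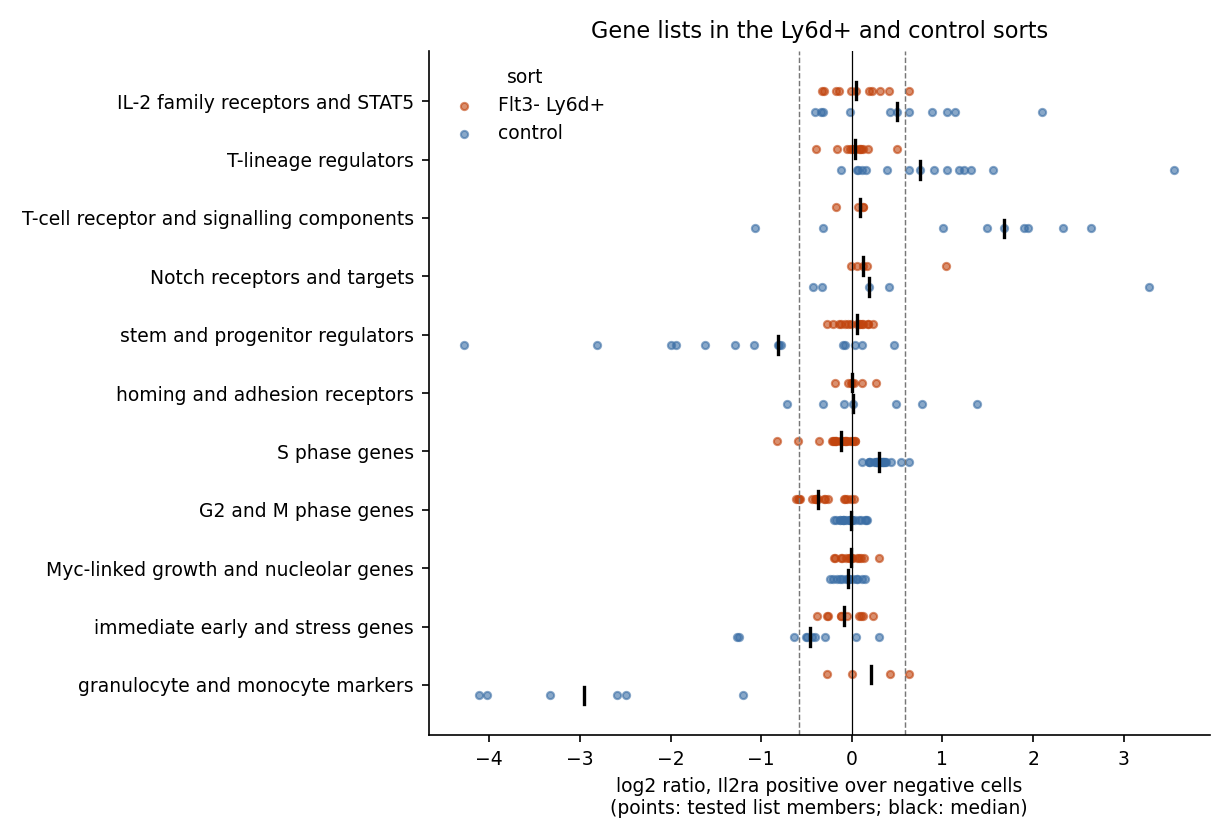
Log2 ratios of positive over negative cells (x axis) for the members of 11 gene lists with enough UMIs, in the Ly6d+ sort above the control sort in each row, with the median as a black bar and dashed lines at 1.5-fold. Ly6d+ points gather near 0, with T-lineage and stem cell medians of 0.035 and 0.057, where the control medians were 0.75 and -0.82.

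In the control sort, where the same rule sets 2067 positive against 1183 negative cells, the groups lay much further apart. Of 5761 genes tested there 222 (3.85%) were higher and 182 (3.16%) lower. Of the T-lineage regulators 9 of 15 were higher there, with a median log2 ratio of 0.75, of T-cell receptor and signalling genes 7 of 9 (median 1.68), and of stem and progenitor regulators 10 of 15 were lower (median -0.82). In the Flt3- Ly6d- HSA- sort, with 91 positive and 1069 negative cells, 193 of 5866 genes (3.29%) were higher and 217 (3.7%) lower. Fewer positive cells widen the counting error there, so the counts of the 3 sorts are not on an equal footing.

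Of the 27 genes higher in Ly6d+ positive cells, 16 had enough UMIs in each of the other sorts, and 7 were also higher in the control (25.9% of the Ly6d+ calls and 3.15% of the control's) and 4 in the Flt3- Ly6d- HSA- sort (14.8% and 2.07%). Among those 16, ratios above 1 were seen for 14 in the control, where 63.5% of all genes tested had one, and for 12 in the Flt3- Ly6d- HSA- sort, against 52.6% of all. Ccl5 and Ly6d were higher in all 3 sorts. Ly6d had ratios of 1.78 in Ly6d+ cells, 2.07 (1.31 to 3.25) in the Flt3- Ly6d- HSA- sort and 5.55 (5.29 to 5.81) in the control. In the Flt3- Ly6d- HSA- sort it stood at 22.1 CPM in positive and 10.7 CPM in negative cells, and passed the level rule only through positive cells. By 0, 1 and 2 or more Il2ra UMIs, Ly6d there had 10.2, 26.5 and 10.8 CPM, so it did not step up. The upper pair rested on 19 and 3 Ly6d UMIs. In the control Ly6d stood at 570 CPM in positive and 103 CPM in negative cells. Ccl5 had ratios of 1.95, 1.54 and 2.53 in the same order, and Fgf3 2.06, 2.29 and 9.71, although Fgf3 lay under the level rule in the Flt3- Ly6d- HSA- sort at 9.04 CPM in positive and 3.95 CPM in negative cells. Itga2b had ratios of 2.0, 2.82 (1.64 to 4.85) and 3.55 (2.80 to 4.50). It was under the level rule in both other sorts and passed it in Ly6d+ cells only through positive cells. Hbb-bt was 4.08-fold higher in the control, but its ratio of 1.14 (0.995 to 1.3) in the Flt3- Ly6d- HSA- sort lay within counting error of 1.

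Of the 31 lower genes, 27 had enough UMIs in the control and 24 in the Flt3- Ly6d- HSA- sort, and 4 were also lower in the control (12.9% of the Ly6d+ calls and 2.20% of the control's) and 7 in the Flt3- Ly6d- HSA- sort (22.6% and 3.23%). Ratios below 1 were seen for 14 of the 27 in the control, where 36.5% of all genes tested had one, and for 15 of the 24 in the Flt3- Ly6d- HSA- sort, against 47.3% of all. Hist1h2bc was lower in all 3 sorts, 1.59-fold, 1.88-fold and 1.52-fold. Il12a was 1.79-fold lower in Ly6d+ cells, 1.37-fold in the Flt3- Ly6d- HSA- sort and 6.27-fold in the control. In the Flt3- Ly6d- HSA- sort it did not pass 1.5-fold. By 0, 1 and 2 or more Il2ra UMIs it had 31.8, 27.9 and 14.3 CPM there, with overlapping intervals and 20 and 4 UMIs in the upper pair. Klf2 was 1.83-fold lower in Ly6d+ cells and 2.0-fold lower in the control, while its ratio in the Flt3- Ly6d- HSA- sort was 1.29. Ctsg and Ccl9, another chemokine, were higher in Ly6d+ positive cells and lower in positive cells of both other sorts, Rrm2 was lower in Ly6d+ and higher in control positive cells, and C330006A16Rik, a clone-named gene singled out after its values were seen, was lower in Ly6d+ and higher in Flt3- Ly6d- HSA- positive cells. These opposite directions were not tested. Elane, the granulocyte gene for neutrophil elastase, stood at 32.7 CPM in positive and 533 CPM in negative control cells. In Ly6d+ cells it had 1 UMI in positive and 13 in negative cells. Whether Ctsg and Elane RNA lay in the same cells was not tested.

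**Figure D5:**
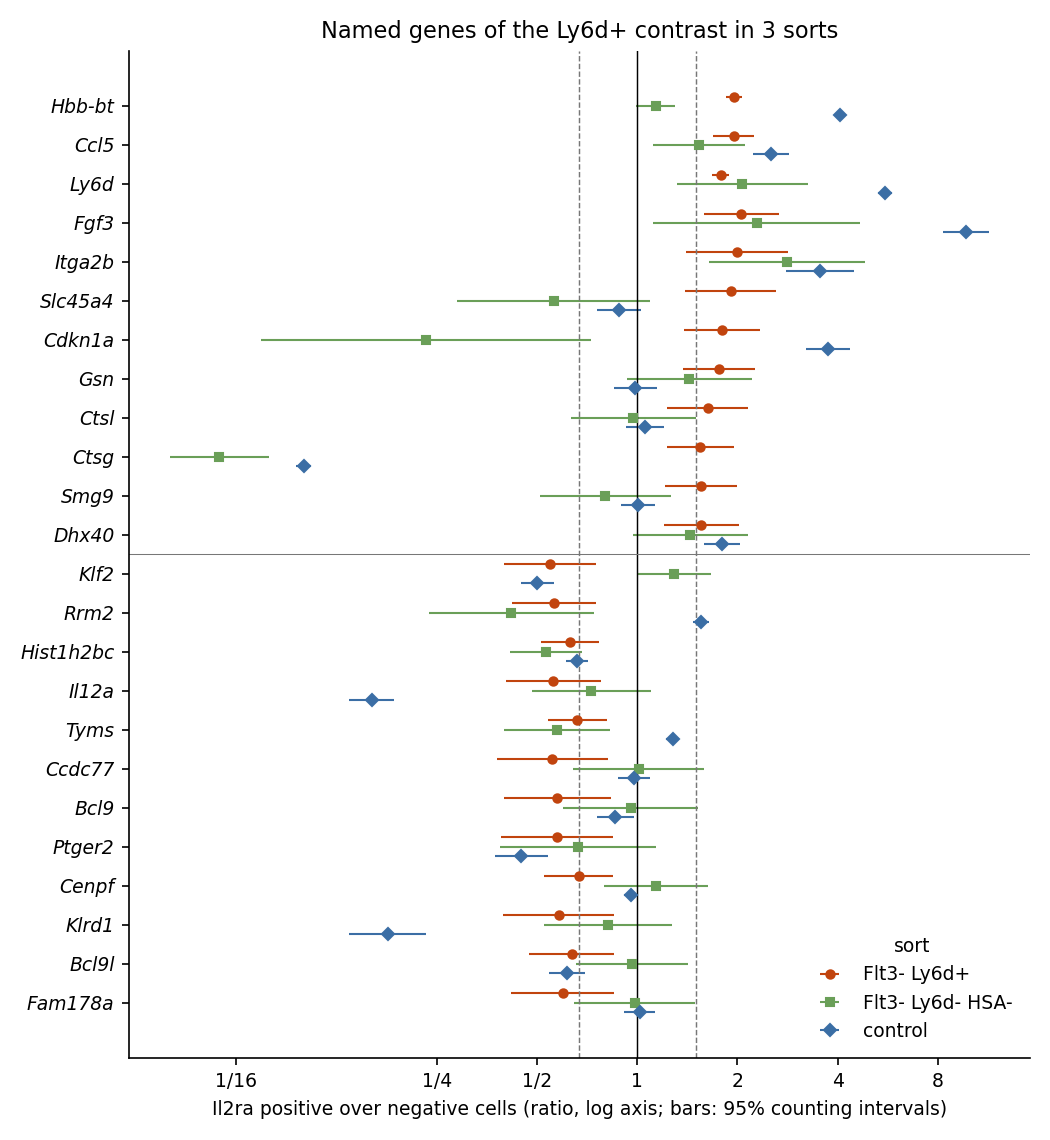
Ratio of Il2ra positive over negative cells (x axis, log scale) for the 12 leading genes in each direction of the Ly6d+ sort, in 3 sorts, with 95% counting intervals and dashed lines at 1.5-fold. Ly6d, Ccl5, Fgf3 and Itga2b lie right of 1 in all 3 sorts and Il12a and Hist1h2bc left of it, while Ctsg lies on opposite sides.

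Lists chosen in control cells alone were then read in Ly6d+ cells, with the level rule set over positive and negative cells together, a choice made after seeing the data. Of the 30 genes that most clearly marked Il2ra positive control cells, 10 reached the level rule over both groups of Ly6d+ cells together, 4 of these were higher (Fgf3, Ly6d, Hbb-bt and Cdkn1a), 0 were lower, and their median log2 ratio was 0.34. Of all 5516 genes at that level 0.290% were higher and 0.453% lower, with a median of 0.0097. Of the other 20 genes of the list, 9 had ratios above 1 and 10 below, on 316 UMIs in positive and 891 in negative cells. The leading 10 in the control were Tubb3, Bcl11b, Fam169b, Fgf3, Ccdc109b, Esm1, Cd3g, Themis, Ly6d and Gbp8. Most genes of the list were nearly unread in Ly6d+ cells, among them the neuronal tubulin Tubb3 (21.8-fold higher in the control, 2 UMIs in positive and 13 in negative Ly6d+ cells) and the T-cell gene Themis (1 and 5 UMIs). Of those at the level, the adaptor Fyb had 111 CPM in positive and 80.6 CPM in negative cells (ratio 1.37, 1.19 to 1.58), and the mast cell protease Cpa3 246 and 214 CPM (ratio 1.15), while Anxa2 and Aldh1b1 had ratios of 0.97 and 0.94. Of the 30 genes that most clearly marked Il2ra negative control cells, 17 reached that level, 15 of these had ratios below 1, 1 was lower (Il12a), 1 was higher (Ctsg), and the median was -0.23. Of the other 13, 11 had ratios below 1 and 2 above. Egfl7, an endothelial and stem cell factor, had 112 CPM in positive and 159 CPM in negative cells (ratio 0.70, 0.62 to 0.80), Evl, an actin regulator, 66.4 and 89.2 CPM (ratio 0.74), and Mpo, myeloperoxidase, 350 and 349 CPM.

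By the number of Il2ra UMIs, 986 of 5472 nameable genes stepped up in CPM from 0 to 1 to 2 or more and 814 stepped down. Values in random order would also step up or down in many genes, so these counts do not mark genes as graded with Il2ra. The 10 with the largest rise in CPM, a measure that favours abundant RNAs, were Plac8, Ly6d, Tmsb4x, Ly6e, Ubb, Crip1, Ifitm1, Ftl1, Cd52 and Tcf7. Only Ly6d (2.39-fold from 0 to 2 or more) and Tcf7 (1.48-fold) rose by more than 1.3-fold among them. Plac8, for example, stood at 2457, 2817 and 2989 CPM.

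Markers of other cell types were found in both groups. At least 2 of 14 granulocyte and monocyte markers were seen in 19.6% of positive cells (14.2% to 26.0%) and 25.7% of negative cells (22.4% to 29.3%), with summed levels of 514 and 504 CPM, and S100a9 was at 0 in positive cells. At least 2 of 8 dendritic cell markers were seen in 5.29% of positive and 9.89% of negative cells, with 365 and 403 CPM in sum. At least 2 of 12 NK and innate lymphoid markers were seen in 72.0% and 64.5%, carried by Tyrobp (813 and 725 CPM), Nkg7 (351 and 360 CPM) and Fcer1g (131 and 110 CPM), while Ncr1, Eomes and Tbx21 were at 0 in both. For B cell, mast cell and red cell markers the share was at most 1.10% in either group, and for later thymocyte and thymic epithelial markers it was 0, which allows up to 1.93% of positive cells with 2 such markers detected, by an exact interval, and does not limit cells of those types. Of the gamma delta T cell markers only 2 of 6 were analysed here, so their 0 sets no limit. Leaving out cells with 2 or more markers of 1 other type kept 43 positive and 149 negative cells, so it dropped most of the sort. Most cells of both groups met the NK and innate lymphoid list. Klrd1, Itga2b, Hbb-bt and Ctsg are among the markers, so for them the filter acted on their own values. It thus cannot show the part of other cell types in the differences, which was not tested.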

How the data were processed

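RNA of 5 hashtagged sorts was measured in 1 pooled 10x Chromium v3 library, with 1 hashtag library. The authors deposited UMI counts per gene and cell, whole numbers without normalization, made with Cell Ranger 3.0 against mm10 per the submitters' processing notes. The deposited hashtag counts, reads or UMIs, and the authors' assignment of cells to sorts were used as they stand, and the 345 unassigned of 8293 barcodes, which belong to no sort, were left out. Filters made before deposition are not stated in the labels. Total depth was 2441771 UMIs in positive and 8146890 in negative cells.

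From these counts, cells with 3000 UMIs or more were kept, UMIs were summed per group, scaled to CPM, and compared by indirect standardisation over 5 depth strata of 37 to 38 positive and 107 to 141 negative cells (Python 3.11.15, numpy 2.4.6, scipy 1.17.1, pandas 2.3.3). CPM carries exact Poisson intervals in positive cells and gamma intervals in negative cells, ratios log-normal intervals and shares of cells exact Clopper-Pearson intervals. UMIs in cells of 1 droplet run are not independent samples, so these intervals cover counting error only. The calculation was tested on simulated counts. TMM factors (edgeR 4.0.16) and size factors (DESeq2 1.42.0) in R 4.3.3 served only as other scalings. The members and all 20 gene lists were chosen with earlier results of these data known. Genes were named by rule: the 12 in each direction whose interval bound nearest 1 was farthest from it, list members past 1.5-fold, the gate genes, the most abundant list members, the 10 leading genes of each control-derived list and the 10 with the largest rise with Il2ra UMIs. A few more list members, Ccl9 and C330006A16Rik were named after their values were seen. Predicted, mitochondrial and ribosomal protein genes were counted, not named. Of the list genes 7, T-cell receptor constant genes, were not analysed here. Coordinates come from GENCODE M21 and promoters from RefSeq. Figures were drawn with matplotlib 3.10.9.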

Additional observations from a re-analysis of the deposited data

Results flagged for a closer look

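In 4 genes the positive cells of the Ly6d+ sort lay on the other side of their negative cells than the positive cells of another sort did, each by 1.5-fold or more. The difference itself was not tested, since each sort was taken once. Ctsg had a log2 ratio of 0.63 in Ly6d+ cells, -4.17 in the Flt3- Ly6d- HSA- sort and -3.33 in the control. Ccl9, a chemokine of the CC family, had 0.71 in Ly6d+ cells, -2.61 in the Flt3- Ly6d- HSA- sort and -1.48 in the control. C330006A16Rik, a clone-named gene singled out after its values were seen, had -0.62 in Ly6d+ cells and 0.76 in the Flt3- Ly6d- HSA- sort. Rrm2 had -0.83 in Ly6d+ cells and 0.63 in the control, and the share of cells with 5 or more S phase UMIs among 3000 was 36% of positive and 39.9% of negative Ly6d+ cells, and 70.6% of positive and 55.4% of negative control cells.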

How the results depend on the processing

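Under each alternative the 27 higher and 31 lower genes of the Ly6d+ comparison were recounted. These settings gave more of both: 80 higher and 58 lower with 1 negative cell matched in depth to each positive cell, 975 and 831 with Il2ra called after thinning to 3000 UMIs (64 positive cells), 184 and 131 with 2 or more Il2ra UMIs against 0, 474 and 364 with 3 or more (34 positive cells, chosen after seeing the data), and 393 and 377 without cells with markers of another type (43 positive cells). Totals without mitochondrial and ribosomal genes gave 79 and 70, a limit of 5 CPM 235 and 233, and a 2-fold limit 1 and 0. Of the 27 and 31 genes, 16 and 20 stayed called with matched negative cells and 19 and 17 with 2 or more Il2ra UMIs. The share of Ly6d+ cells with Il2ra was 7.75% after thinning. The median log2 ratio of the genes chosen as higher in the control was 0.53 after thinning and 0.60 with 3 or more Il2ra UMIs, and of those chosen as lower -0.11 with 2 or more. Signs turned in the smallest groups. The 762 cells read as negative after thinning included cells that were Il2ra positive at full depth. Genes near 20 CPM had few UMIs left in the 64 positive cells, so values after thinning cannot settle the direction of such genes. After thinning, log2 ratios were -0.19 for Hbb-bt, -1.56 for Itga2b, -0.23 for Slc45a4, -0.51 for Ctsg and -0.011 for Socs3, and list medians -0.026 for gate genes, -0.14 for granulocyte, -0.87 for red cell and 0.25 for thymic epithelial markers. The filter on markers of another type used Itga2b, Klrd1 and the granulocyte and mast cell lists themselves. With it, Itga2b was -0.052, Klrd1 0.24 and Socs3 -0.33, and list medians -0.16 for Notch genes, -0.21 for granulocyte and -0.16 for mast cell markers. With 2 or more Il2ra UMIs Socs3 was -0.21, and with 3 or more it was -0.45, Klrd1 0.21, the S phase median 0.0073 and the dendritic median 0.062. The cause was not tested. Ly6d kept a log2 ratio of 0.58 to 1.27 and Il12a of -1.81 to -0.68 under every setting run, while Ccl5 was 0.0035 and Fgf3 0.37 after thinning. Other settings left counts within 1.5 times, and the counts of the other sorts with 10 or no depth strata did too. Like counts did not mean the same genes. With fewer than 5 G2 and M phase UMIs, 22 of the 27 higher and 15 of the 31 lower genes stayed called. Without the 5% of cells with most UMIs 23 and 19 did, and with equal weight for each cell 23 and 20. No paired analysis was possible because all groups come from 1 library with no replicates. Depth limits most genes: a gene near 20 CPM has about 50 UMIs in all positive cells.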
